A study of Mus musculus with 9 samples.

Results

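The 10 genes described here act in the decision to leave G1, the growth phase before DNA synthesis, and were followed through cytokine exposure of mouse pancreatic islets. They comprised the D cyclins Ccnd1, Ccnd2 and Ccnd3, their kinase partner Cdk4, the CDK inhibitors Cdkn1a, Cdkn1b, Cdkn1c and Cdkn2a, and Trp53 with its antagonist Mdm2. They were chosen by gene symbol, and all 10 were found among the 56748 genes of the deposited count table. All 10 also passed the filter on low counts, which kept 17276 genes.

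The series holds 9 RNA-seq libraries of whole primary islets, 3 in each of 3 groups, all from wild-type C57bl/6 mice. Particle islets received an inflammatory cocktail of IL-1 beta, TNF-alpha and IL-6 for 48 hours together with polydopamine-coated mesoporous silica nanoparticles, named PD-G-MSNPs by the submitters. Inflamed islets received the cocktail alone for 48 hours. Control islets were untreated. The series was set up to ask whether the particles protect islets under cytokines, and no group with particles alone was analysed here. Neither the age of the mice nor the origin of the replicates is stated, so p-values measure the spread between these libraries, which may be partly technical.

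D cyclins bind Cdk4 or Cdk6, and the active kinase phosphorylates the retinoblastoma protein, which frees E2F factors to drive genes of DNA synthesis. Cip/Kip inhibitors (p21 from Cdkn1a, p27 from Cdkn1b, p57 from Cdkn1c) bind cyclin-CDK complexes broadly, whereas INK4 inhibitors bind Cdk4 and Cdk6. The transcription factor p53 induces Cdkn1a and Mdm2, and the Mdm2 protein marks p53 for degradation, a negative feedback loop. In the mouse beta cell, Ccnd2 and Cdk4 are required for postnatal growth of beta cell mass, and Cdkn2a is known for its rise with age.

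Total counts ranged from 17832949 to 25302772 in particle, 19394440 to 55865759 in inflamed and 23064836 to 32101145 in control libraries. Insulin transcripts took 8.55 to 21.6% of counts in particle, 13.0 to 21.2% in inflamed and 28.5 to 29.2% in control libraries. Particle replicate 2 stood apart from the other 2 particle libraries, with a first principal component of -16.4 against 32.8 and 66.0, while inflamed libraries lay between 67.0 and 80.6 and controls between -102 and -96.1. Of 10 beta cell markers, 9 were lower in inflamed than in control islets and 0 were higher, and their summed level was 87557 to 240209 CPM in particle, 123576 to 228971 CPM in inflamed and 341800 to 360112 CPM in control libraries. Of 13 tested macrophage markers, 11 were higher and 1 was lower, and the summed level of the 14 listed was 344 to 513 CPM in particle, 1021 to 1139 CPM in inflamed and 317 to 397 CPM in control libraries. CPM relates a gene's count to the TMM-scaled total of its library. Acinar markers summed to 21.9 to 3012 CPM in particle, 33.2 to 2620 CPM in inflamed and 93.4 to 1378 CPM in control libraries. Particle replicate 2 held the highest acinar sum, 3012 CPM. It also held the highest beta cell sum of the particle libraries, and the alpha cell sum there was 7936 CPM. The lowest alpha cell sum of a particle library was 93.0 CPM, and the range was 113 to 476 CPM in inflamed and 7463 to 27473 CPM in control libraries. Endothelial markers summed to 7.43 to 35.3 CPM in particle, 7.11 to 12.5 CPM in inflamed and 33.3 to 86.1 CPM in control libraries, with 6 of 10 lower and 0 higher in inflamed than in control islets. In bulk RNA, fewer cells of a type and less RNA per cell cannot be told apart, and the part of these shifts in the results below was not tested.

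Under cytokines, 3 of the 10 genes rose and 4 fell relative to untreated islets. Cdkn1a, Mdm2 and Trp53 rose, and Ccnd1, Ccnd2, Ccnd3 and Cdkn1b fell, while Cdk4, Cdkn1c and Cdkn2a did not pass the test. In edgeR's quasi-likelihood test, with p-values adjusted by the Benjamini-Hochberg method over all genes and a threshold of 0.05, 39.6% of all tested genes passed for inflamed against control, 20.7% higher and 19% lower. With particles, Cdkn1a, Mdm2 and Trp53 were again higher than in control islets, against 11.4% of all tested genes, and 0 of the 10 were lower, against 5.92%. None of the 10 passed between particle and inflamed islets, where 0% of all tested genes did. The median log2 fold change of the 10 genes was -0.45 for inflamed against control, 0.11 for particle against inflamed and -0.29 for particle against control, beside 0.05, 0.04 and 0.05 for all tested genes. Inflamed and control values did not overlap for 7 of the 10, against 56.7% of all tested genes, and particle and control values did not overlap for 5 of the 10, against 43.5%.

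**Figure D1:**
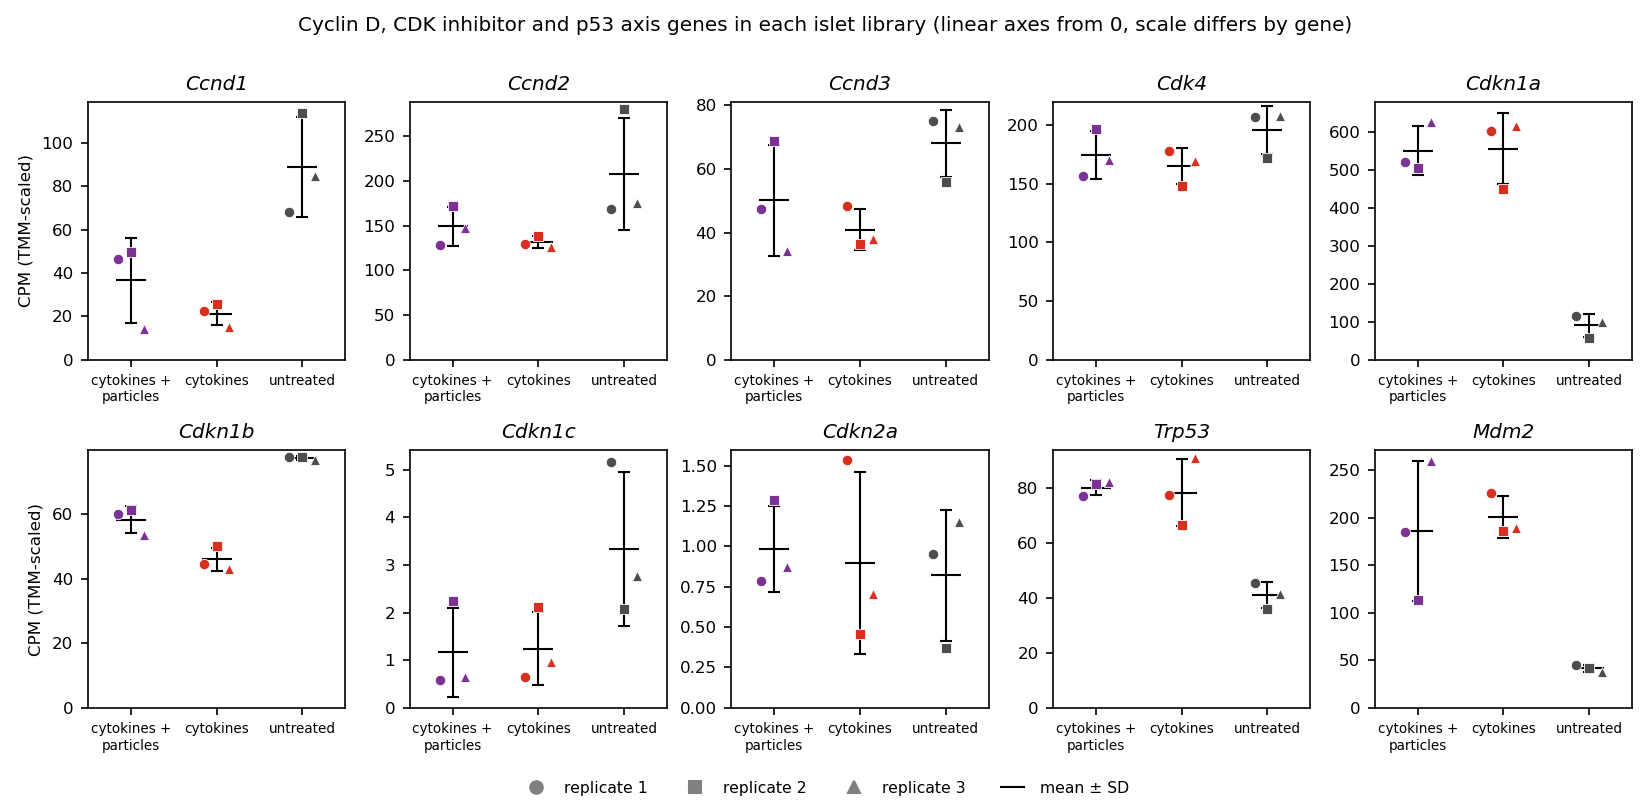
Expression of each of the 10 genes in CPM (TMM-scaled, linear axes from 0) in particle, inflamed and control islets; points are libraries, and bars are the mean ± SD of 3. Cdkn1a lies at 449 to 626 CPM in all 6 libraries with cytokines and at or below 115 CPM in the 3 untreated ones.

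Cdkn1a, which encodes the CDK inhibitor p21 (ENSMUSG00000023067, GRCm39 chromosome 17 from 29309950 to 29319701, plus strand), showed the widest gap. It was expressed at 522, 505 and 626 CPM in particle islets, at 604, 449 and 616 CPM in inflamed islets and at 115, 56.2 and 100.2 CPM in control islets. Every library with cytokines lay above every untreated one, and the libraries with and without particles were interleaved. Inflamed islets averaged 556 ± 93.0 CPM and control islets 90.3 ± 30.4 CPM (SD, n = 3 each), a 6.16-fold difference (log2 fold change 2.62, SE 0.29, edgeR adjusted p = 0.000108). Particle islets, at 551 ± 65.2 CPM, were 6.10-fold above control (log2 fold change 2.61, SE 0.29, edgeR adjusted p = 0.000150). By mean FPKM, a level per gene length, Cdkn1a ranked 240th in particle, 257th in inflamed and 1803rd in control islets among 17276 tested genes. A gene of the opposite strand, 1700023B13Rik, overlaps it over 1046 bases but held 3 to 111 counts per library, against at least 1222 for Cdkn1a.

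Mdm2, the ubiquitin ligase that restrains p53 (ENSMUSG00000020184, GRCm39 chromosome 10 from 117524780 to 117546663, minus strand), had 185, 113 and 260.0 CPM in particle, 227, 187 and 189.7 CPM in inflamed and 44.6, 41.7 and 37.9 CPM in control islets. Particle replicate 2 was the lowest of the libraries with cytokines and particle replicate 3 the highest, and both exceeded all controls. The gene averaged 201 ± 22.3 CPM in inflamed and 41.4 ± 3.37 CPM in control islets (SD, n = 3 each), 4.85-fold higher (log2 fold change 2.28, SE 0.28, edgeR adjusted p = 0.000213). At 186 ± 73.4 CPM, particle islets were 4.49-fold above control (log2 fold change 2.17, SE 0.28, edgeR adjusted p = 0.000421).

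Trp53, which encodes p53 itself (ENSMUSG00000059552, GRCm39 chromosome 11 from 69471185 to 69482699, plus strand), was measured at 76.9, 81.1 and 81.9 CPM in particle, 77.1, 66.6 and 90.8 CPM in inflamed and 45.2, 36.0 and 41.4 CPM in control islets. All 6 libraries with cytokines were above all 3 controls, by a narrower margin than for the other genes of the loop. Inflamed islets averaged 78.2 ± 12.1 CPM against 40.9 ± 4.63 CPM in control islets (SD, n = 3 each), 1.91-fold higher (log2 fold change 0.93, SE 0.18, edgeR adjusted p = 0.00250). Particle islets averaged 79.98 ± 2.70 CPM, 1.96-fold above control (log2 fold change 0.97, SE 0.18, edgeR adjusted p = 0.00553). Transcript levels say nothing of p53 protein, which is controlled mainly by its stability.

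These 3 genes were all higher in both groups with cytokines than in control islets. Their promoters are shown because p53 acts through a short DNA motif, and a part of p53 in the rise was not tested. RefSeq promoter windows (GRCm38.p6, 250 bases before to 50 after a start site) were available for 7 of the 10 genes, in 10 windows, and Ccnd1, Ccnd2 and Cdkn1c had none. The p53 decamer motif was searched on both strands, and capitals mark its matches in the 250 bases before the start, printed 5′ to 3′ along the gene's strand.
Cdkn1a, upstream start, chr17:29090729-29090978, plus strand: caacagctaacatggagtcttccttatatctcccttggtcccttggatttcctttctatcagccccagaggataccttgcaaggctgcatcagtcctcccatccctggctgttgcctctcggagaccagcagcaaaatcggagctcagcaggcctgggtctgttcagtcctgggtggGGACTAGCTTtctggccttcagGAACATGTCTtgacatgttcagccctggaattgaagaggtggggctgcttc
Trp53, chr11:69580109-69580358, plus strand: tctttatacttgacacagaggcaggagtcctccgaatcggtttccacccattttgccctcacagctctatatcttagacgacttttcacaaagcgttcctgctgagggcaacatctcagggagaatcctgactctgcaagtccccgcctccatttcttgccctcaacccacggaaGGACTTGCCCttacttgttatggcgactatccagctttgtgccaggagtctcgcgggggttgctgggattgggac
Mdm2, chr10:117710759-117711008, minus strand: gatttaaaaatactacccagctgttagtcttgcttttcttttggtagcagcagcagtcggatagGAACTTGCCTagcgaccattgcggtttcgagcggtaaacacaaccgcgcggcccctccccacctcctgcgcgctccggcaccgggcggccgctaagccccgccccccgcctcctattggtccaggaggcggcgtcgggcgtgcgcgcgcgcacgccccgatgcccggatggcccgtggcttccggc
The matches lay at -73 to -64 and -51 to -42 from the upstream Cdkn1a start, at -75 to -66 from the Trp53 start and at -186 to -177 from the Mdm2 start. No other window of the 10 genes held this motif, including the second Cdkn1a window, and 8.36% of all 32851 windows of the table did. The Trp53 window also held a match to the NF-kB motif, GGGACTTTCC, from -5 to 5 across the start, a motif found in 8.46% of all windows. The remaining motifs gave 4 matches to the E-box CACGTG in the Cdk4 window and 1 in the Trp53 window (7.15% of all windows held one), and 1 match to the E2F motif (TTTGGCGC or TTTCCCGC) in a Cdkn2a window (1.56%). The STAT motif TTCNNNGAA, the interferon response motif (ISRE) and the AP-1 motif TGANTCA, held by 8.30, 3.44 and 7.81% of all windows, were absent from the windows of the 10 genes. A full p53 response element holds 2 such decamers, and the single matches of Trp53 and Mdm2 hold 1 each. A match describes letters, not a bound site, and the intronic promoter of Mdm2, where p53 is known to act, lies outside such a window.

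Known p53 target genes beyond Cdkn1a and Mdm2 were examined next, as a list of 29. In inflamed against control islets 16 of 29 rose, 2 fell and 11 did not pass, against 20.7% higher and 19% lower among all tested genes. The list's median log2 fold change was 1.39, beside 0.05 for all tested genes. Particle against control gave 16 higher and 1 lower, against 11.4% and 5.92% of all tested genes, with a median log2 fold change of 1.25. The genes with the smallest adjusted p were Fas, a death receptor, at 46.7 ± 5.13 CPM in inflamed and 0.222 ± 0.143 CPM in control islets (log2 fold change 7.71, SE 0.42, edgeR adjusted p = 1.23e-06), and Sfn, the checkpoint adaptor 14-3-3 sigma, at 64.7 ± 24.9 against 2.90 ± 0.616 CPM (edgeR adjusted p = 7.11e-06; SD, n = 3 each). Tnfrsf10b, a TRAIL receptor, followed at 23.3 ± 3.28 CPM in inflamed and 2.36 ± 0.163 CPM in control islets (9.81-fold, edgeR adjusted p = 1.39e-05), and Plk2, a stress-responsive kinase, at 33.0 ± 3.35 against 5.20 ± 1.92 CPM (6.36-fold, edgeR adjusted p = 0.000421). The same 4 genes averaged 49.1 ± 14.2, 65.2 ± 8.01, 19.9 ± 5.64 and 25.01 ± 12.5 CPM in particle islets. Others that rose were Ccng1 (log2 fold change 1.82), Phlda3 (3.06), Zmat3 (1.53), Aen (1.45), Eda2r (2.97) and Bax (0.94), the last a pore-forming death protein. The 2 that fell were Sesn1 (-1.47), a stress-induced inhibitor of growth signalling, and Tigar (-1.08), which restrains glycolysis. Bbc3, which encodes the death protein PUMA, was not called at a log2 fold change of -0.30, nor was Gadd45a, a growth arrest gene, at -0.06. Fas is also known as a target of cytokine signalling, and the count does not measure p53 activity.

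**Figure D2:**
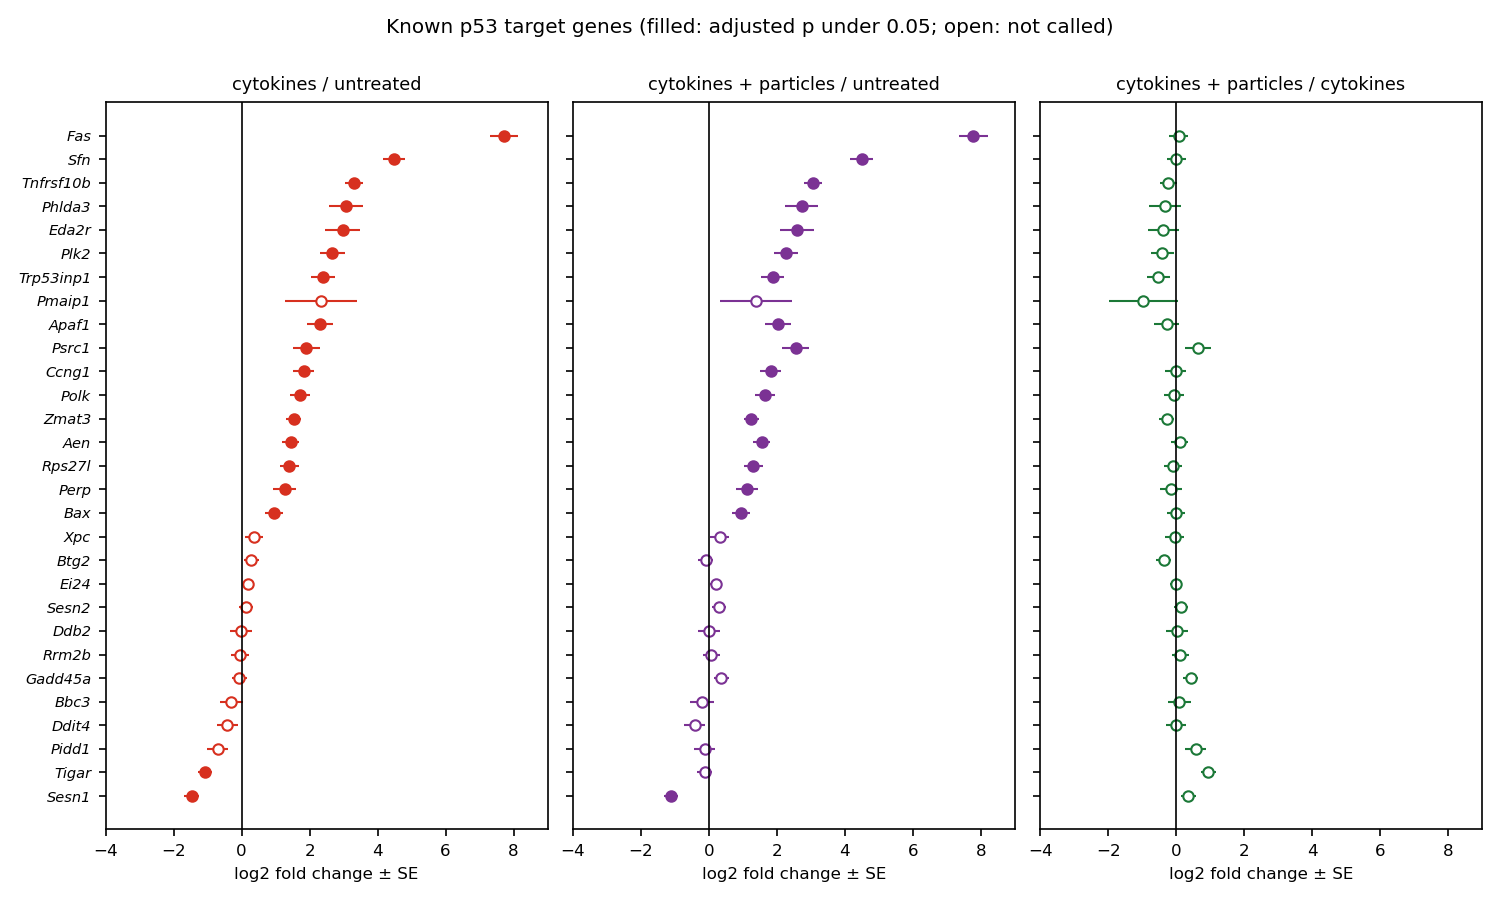
Log2 fold change ± SE of 29 known p53 target genes in 3 comparisons, ordered by the value in inflamed against control islets; filled points passed an adjusted p of 0.05. The panels of inflamed and of particle against control islets hold 16 filled points above 0 each, and the panel of particle against inflamed islets holds 0.

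A further list held 22 regulators and relatives of p53, of which 20 were tested. The relatives Trp63 and Trp73 did not pass the count filter. Of the 20 regulators, 7 rose and 1 fell in inflamed against control islets, against 20.7% and 19% of all tested genes, with a median log2 fold change of 0.34. Rchy1, a ubiquitin ligase for p53, was at 165 ± 18.4 CPM in inflamed and 61.8 ± 14.1 CPM in control islets (edgeR adjusted p = 0.00101; SD, n = 3 each). The DNA damage kinases Atr and Atm rose by log2 fold changes of 1.56 and 2.28 (edgeR adjusted p = 0.00381 and 0.00400), and the phosphatase Ppm1d by 0.87 (edgeR adjusted p = 0.0189). Trp53bp1, a DNA repair factor, was the one that fell (edgeR adjusted p = 0.0297). Leaving out 1 library, named here by group and replicate number, changed these counts. Without control 1, control 3 or inflamed 1 the count of 7 became 3, and leaving out control 2, inflamed 1 or inflamed 3 turned the 1 into 0. Limma on log2(FPKM + 0.1) gave 4 higher, library totals 0 lower, and DESeq2 or a fit of the compared libraries alone 2 lower. In particle against control islets 2 rose, Atr and Rchy1, and 0 fell, against 11.4% and 5.92% of all tested genes, with 1 higher when control 2, control 3 or particle 3 was left out and 4 higher when particle 2 was. The count was 4 with library totals and 1 with limma on either FPKM scale.

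Cdkn1b, which encodes p27, went the opposite way to Cdkn1a. Its level (ENSMUSG00000003031, GRCm39 chromosome 6 from 134897364 to 134902476, plus strand) was 60.1, 61.2 and 53.4 CPM in particle, 44.6, 50.1 and 43.1 CPM in inflamed and 77.7, 77.7 and 76.7 CPM in control islets. The 3 groups did not overlap with one another, and the particle libraries lay between the others. Inflamed islets averaged 45.9 ± 3.68 CPM and control islets 77.4 ± 0.594 CPM (SD, n = 3 each), 1.68-fold lower (log2 fold change -0.75, SE 0.16, edgeR adjusted p = 0.00418). Particle islets, at 58.2 ± 4.20 CPM, did not pass edgeR's test against either, with a log2 fold change of -0.41 against control (95% interval -0.76 to -0.06, edgeR adjusted p = 0.0989, passing with DESeq2 at adjusted p = 0.0219) and 0.34 against inflamed islets (-0.01 to 0.69, edgeR adjusted p = 0.347). Cdkn1b was the only one of the 10 genes whose particle and inflamed values did not overlap, against 15.7% of all tested genes (8.87% higher and 6.82% lower in every particle library).

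Cdkn1c, an imprinted gene whose product p57 is linked to beta cell overgrowth when lost in humans (ENSMUSG00000037664, GRCm39 chromosome 7 from 143012076 to 143014787, minus strand), had few counts. They were 12, 56 and 15 in particle, 14, 46 and 52 in inflamed and 125, 45 and 77 in control libraries. In CPM these were 0.591, 2.25 and 0.654 in particle, 0.651, 2.11 and 0.966 in inflamed and 5.16, 2.07 and 2.76 in control islets, so the groups overlapped. The log2 fold change was -1.43 for inflamed against control (95% interval -2.90 to 0.05, edgeR adjusted p = 0.112; limma-voom adjusted p = 0.0438) and -1.51 for particle against control (-2.99 to -0.02, edgeR adjusted p = 0.145). Without particle replicate 2, particle against control passed at -2.45 (edgeR adjusted p = 0.0287).

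Cdkn2a encodes both the INK4 inhibitor p16 and, from an alternative first exon, p19ARF, which blocks Mdm2, and counts per gene do not separate the transcripts. The gene (ENSMUSG00000044303, GRCm39 chromosome 4 from 89192708 to 89212890, minus strand) had the lowest mean CPM of the 10 in each group, although Cdkn1c was lower in particle replicates 1 and 3 and inflamed replicate 1. It had 16, 32 and 20 counts in particle, 33, 10 and 38 in inflamed and 23, 8 and 32 in control libraries. In CPM these were 0.788, 1.29 and 0.872 in particle, 1.53, 0.458 and 0.706 in inflamed and 0.950, 0.368 and 1.15 in control islets, fully overlapping. The log2 fold change of 0.12 for inflamed against control had a 95% interval of -1.42 to 1.65 (edgeR adjusted p = 0.906), which does not exclude a 2-fold change in either direction.

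The 3 D cyclins were lower under cytokines, Ccnd1 by the most. Ccnd1, the D cyclin most responsive to growth signals (ENSMUSG00000070348, GRCm39 chromosome 7 from 144483668 to 144493662, minus strand), was at 46.2, 49.7 and 14.1 CPM in particle, 22.6, 25.6 and 15.2 CPM in inflamed and 68.1, 114 and 84.8 CPM in control islets. Inflamed and control libraries did not overlap, and particle replicates 1 and 2 lay between them while particle replicate 3 was the lowest of all 9. Inflamed islets averaged 21.1 ± 5.34 CPM and control islets 88.9 ± 23.1 CPM (SD, n = 3 each), 4.21-fold lower (log2 fold change -2.07, SE 0.42, edgeR adjusted p = 0.00318). Particle islets, at 36.7 ± 19.6 CPM, had a log2 fold change of -1.28 against control (95% interval -2.17 to -0.38, edgeR adjusted p = 0.0530), which passed in 8 of 21 alternatives, among them DESeq2 (adjusted p = 0.00822) and the fit without particle replicate 2 (-1.60, edgeR adjusted p = 0.0254). Against inflamed islets it was 0.80 (95% interval -0.10 to 1.69, edgeR adjusted p = 0.391), which passed without particle replicate 3 (1.19, edgeR adjusted p = 0.0396). LTO1 of the opposite strand overlaps Ccnd1 over 1771 bases and held 503 to 1180 counts, with a log2 fold change of -0.10 in inflamed against control islets (edgeR adjusted p = 0.683). Whether counting used the strand is not stated, and reads from the overlap may have been given to either gene or to none.

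Ccnd2, the D cyclin with the highest level in islets here (ENSMUSG00000000184, GRCm39 chromosome 6 from 127102125 to 127129156, minus strand), had 129, 172 and 147 CPM in particle, 129, 139 and 126 CPM in inflamed and 168, 280.2 and 175 CPM in control islets. The inflamed libraries were all below the controls, and particle replicate 2 reached into the control range. The mean was 131 ± 6.83 CPM in inflamed and 208 ± 62.7 CPM in control islets (SD, n = 3 each), 1.58-fold lower (log2 fold change -0.66, SE 0.23, edgeR adjusted p = 0.0384). Particle against control gave -0.48 (95% interval -0.98 to 0.02, edgeR adjusted p = 0.166). The call for inflamed islets was lost without control replicate 2 (log2 fold change -0.42) or any 1 of the 3 inflamed libraries (edgeR adjusted p up to 0.131).

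Ccnd3 (ENSMUSG00000034165, GRCm39 chromosome 17 from 47815976 to 47910616, plus strand) was at 47.5, 68.8 and 34.1 CPM in particle, 48.3, 36.3 and 38.0 CPM in inflamed and 75.1, 56.0 and 73.3 CPM in control islets. Inflamed and control libraries did not overlap, and particle libraries spread across both. Inflamed islets averaged 40.9 ± 6.49 CPM against 68.2 ± 10.5 CPM in control islets (SD, n = 3 each), 1.67-fold lower (log2 fold change -0.74, SE 0.26, edgeR adjusted p = 0.0403). It no longer passed once control 1, control 3, inflamed 2, inflamed 3 or particle 1 was left out (edgeR adjusted p up to 0.106). Particle against control gave -0.44 (95% interval -1.01 to 0.12, edgeR adjusted p = 0.251), which passed without particle replicate 2 (-0.78, edgeR adjusted p = 0.0336). The ribosome biogenesis gene Bysl overlaps Ccnd3 on the opposite strand over 361 bases. Its log2 fold change was 0.39 for inflamed against control (edgeR adjusted p = 0.0865). For particle against control it was called higher at 0.71 (edgeR adjusted p = 0.0192).

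The calls for Ccnd2 and Ccnd3 depended on the scaling. With library totals in place of TMM factors, which raised the median of all genes by 0.18 for inflamed against control islets, the log2 fold changes were -0.49 for Ccnd2 (edgeR adjusted p = 0.129) and -0.56 for Ccnd3 (edgeR adjusted p = 0.0739). Ccnd1 and Cdkn1b stayed called with that scaling, as did Cdkn1a, Mdm2 and Trp53.

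Cdk4, the kinase that D cyclins activate (ENSMUSG00000006728, GRCm39 chromosome 10 from 126899403 to 126903789, plus strand), had 156, 197 and 170.3 CPM in particle, 178, 148 and 169 CPM in inflamed and 207, 172 and 208 CPM in control islets. The 3 groups overlapped. The log2 fold change was -0.25 for inflamed against control (95% interval -0.65 to 0.16, edgeR adjusted p = 0.309), -0.17 for particle against control (-0.57 to 0.24, edgeR adjusted p = 0.564) and 0.08 for particle against inflamed (-0.32 to 0.48, edgeR adjusted p = 0.881). Tspan31 of the opposite strand overlaps Cdk4 over 641 bases and was not called in any of the 3 comparisons.

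**Figure D3:**
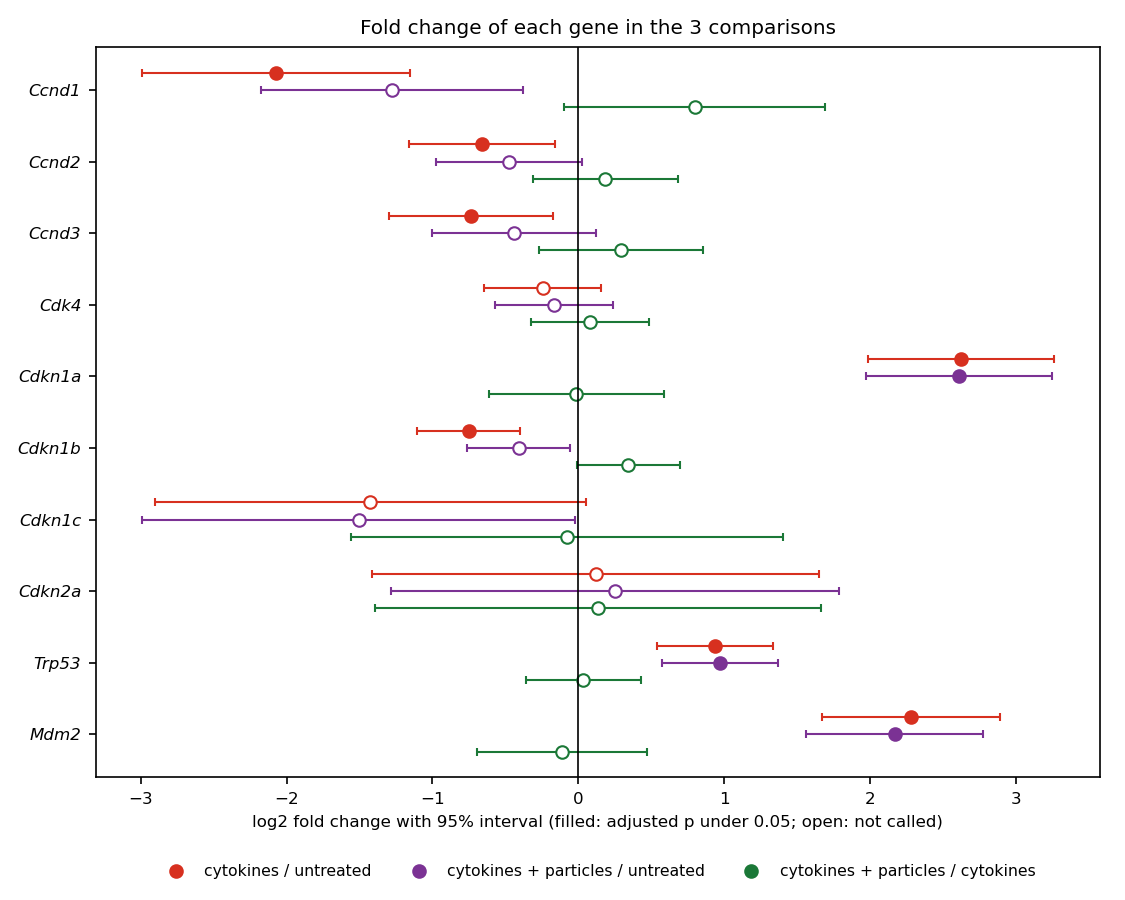
Log2 fold change with 95% interval of the 10 genes in 3 comparisons; filled points passed an adjusted p of 0.05 over all genes. For Cdkn1a, Mdm2 and Trp53 both comparisons with untreated islets are filled and positive, and no point for particle against inflamed islets is filled.

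Particle and inflamed islets were then compared directly for all 10 genes, the comparison on which the series centres. None passed edgeR's test with all libraries, 0 passed with DESeq2 or limma, and 0 had an unadjusted p under 0.05, against 15.1% of all tested genes. For the p53 loop the intervals of the log2 fold change were -0.62 to 0.59 for Cdkn1a, -0.36 to 0.43 for Trp53 and -0.69 to 0.47 for Mdm2, around values of -0.01, 0.03 and -0.11. For Ccnd2 and Ccnd3 they were -0.31 to 0.68 and -0.27 to 0.86, around 0.19 and 0.29. Cdkn1c and Cdkn2a had the widest, -1.56 to 1.40 and -1.40 to 1.66. The sign of the Cdkn1a value was positive with library totals (0.10), and that of Mdm2 likewise (0.01). In the same particle libraries the summed macrophage markers, at 344 to 513 CPM, were below all inflamed libraries. Of the 13 tested macrophage markers, 0 were called between particle and inflamed islets. Cdkn1a, at 505 to 626 CPM in particle libraries, overlapped the inflamed libraries, and a link to the macrophage sum was not tested. Particle against inflamed and particle against control share the particle libraries, and both comparisons with control share the control libraries.

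Levels per length placed the genes in order within each group. In control islets Cdk4 was highest at 60.8 ± 5.61 FPKM and overlapped none of the others. Cdkn1a (25.6 ± 8.30), Ccnd2 (22.4 ± 7.09), Ccnd1 (19.1 ± 5.26) and Cdkn1b (17.2 ± 0.309) followed. Among these 4, neighbours in this order overlapped. Lower were Trp53 (10.2 ± 0.9996), the overlapping pair Mdm2 (8.22 ± 0.626) and Ccnd3 (7.83 ± 1.11), Cdkn1c (1.64 ± 0.776) and Cdkn2a (0.706 ± 0.344). In inflamed islets Cdkn1a led at 153 ± 24.8 FPKM, above Cdk4 (49.6 ± 4.23), Mdm2 (38.5 ± 3.74), Trp53 (18.8 ± 2.98), Ccnd2 (13.6 ± 0.774) and Cdkn1b (9.85 ± 0.843). Below them Ccnd3 (4.54 ± 0.657) and Ccnd1 (4.37 ± 1.10) overlapped, as did Cdkn2a (0.745 ± 0.456) and Cdkn1c (0.596 ± 0.372). Particle islets kept Cdkn1a first at 149.6 ± 16.8 FPKM, with Cdk4 (51.8 ± 5.61) and Mdm2 (35.3 ± 13.8) overlapping and Ccnd1 (7.53 ± 4.05) overlapping Ccnd3 (5.51 ± 1.90).

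The balance of inhibitor to cyclin transcripts shifted in the same libraries. The summed FPKM of the 3 D cyclins was 28.4, 35.1 and 21.6 in particle, 23.1, 23.9 and 20.6 in inflamed and 40.7, 61.9 and 45.4 in control islets, with every control library above every library with cytokines. Ccnd1 made up 34.0, 28.8 and 13.3% of that sum in particle, 19.95, 22.3 and 15.4% in inflamed and 35.3, 40.0 and 40.0% in control islets. The ratio of Cdkn1a to the summed D cyclins was 5.08, 3.88 and 7.82 in particle, 7.07, 5.20 and 8.29 in inflamed and 0.788, 0.262 and 0.627 in control islets. Within the Cip/Kip family Cdkn1a took 92.0 ± 1.47% of the FPKM in particle, 93.4 ± 1.84% in inflamed and 56.5 ± 8.60% in control islets (SD, n = 3 each). The ratio of Mdm2 to Trp53 was 1.91, 1.11 and 2.53 in particle, 2.34, 2.23 and 1.66 in inflamed and 0.785, 0.922 and 0.728 in control islets. These sums and ratios describe the libraries and were not tested.

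**Figure D4:**
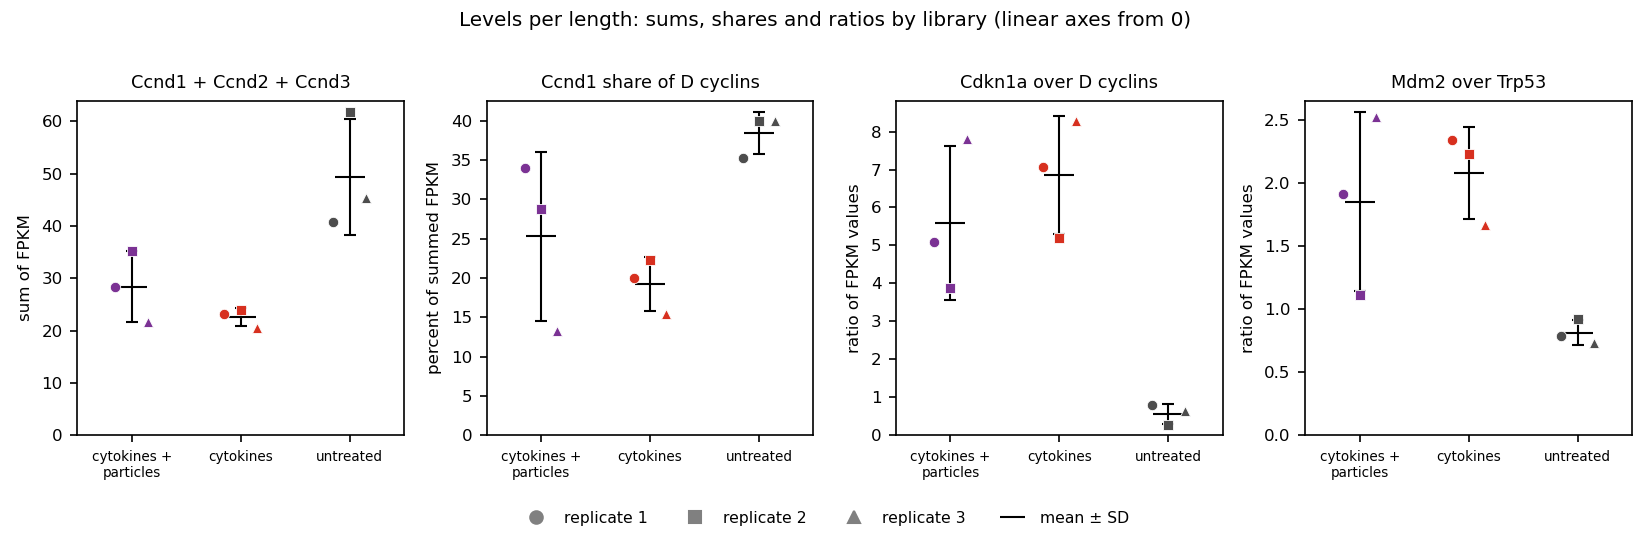
Summed FPKM of the D cyclins, the Ccnd1 share of that sum in percent, and the FPKM ratios of Cdkn1a to summed D cyclins and of Mdm2 to Trp53, by library in particle, inflamed and control islets; points are libraries, and bars are the mean ± SD of 3. The D cyclin sum of particle replicate 3, 21.6, lies within the inflamed range and its Ccnd1 share, 13.3%, below it, and particle replicates 1 and 2 lie above the inflamed libraries in both panels.

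Other genes of the G1 machinery were examined as a list of 24. Of 23 tested in inflamed against control islets, 5 rose and 7 fell, against 20.7% and 19% of all tested genes, with a median log2 fold change of -0.13. Cdk6, the other kinase partner of D cyclins, was at 12.7 ± 2.28 CPM in inflamed and 0.734 ± 0.392 CPM in control islets (17.3-fold, edgeR adjusted p = 0.000307; SD, n = 3 each), and at 10.8 ± 5.65 CPM in particle islets. Rbl1, which encodes the pocket protein p107, rose to 15.8 ± 2.03 CPM in inflamed islets, against 4.48 ± 0.663 CPM in control islets (edgeR adjusted p = 0.000602). Tfdp2, a partner of E2F factors, was at 8.25 ± 0.561 against 23.3 ± 3.19 CPM (edgeR adjusted p = 0.000926), and Cdkn2c, which encodes the INK4 inhibitor p18, at 3.14 ± 0.609 in inflamed against 14.1 ± 2.05 CPM in control islets (4.47-fold lower, edgeR adjusted p = 0.00103). E2f1 (-2.10) and E2f2 (-3.62) were also lower, together with Cdkn2d (-1.39), Rbl2 (-1.42) and Tfdp1 (-0.57). E2f3 (1.07, edgeR adjusted p = 0.0109), E2f5 (0.90) and Mnat1 (1.11) were higher, so the E2F genes did not move together. Cdkn2c averaged 8.26 ± 3.73 CPM in particle islets, between the means of the other groups, and was not called against either (edgeR adjusted p = 0.134 for both). Particle and control libraries overlapped, with particle replicate 2 at 12.3 CPM and control replicate 2 at 11.8 CPM. In particle against control islets 4 genes of the list rose and 2 fell, against 11.4% and 5.92% of all tested genes. The 2 became 1 with library totals, 4 with limma-voom or limma on log2(FPKM + 0.1), and 5 with DESeq2 or limma on log2(FPKM + 1). The 4 became 2 when control 2, control 3, particle 1 or particle 3 was left out. The 2 became 0 when control 1, control 2, particle 1 or particle 3 was left out, 1 without control 3 or inflamed 1, and 6 without particle 2.

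Among genes that control the turnover of D cyclins and CDK inhibitors, 2 of 15 rose and 1 fell in inflamed against control islets, against 20.7% and 19% of all tested genes, with a median log2 fold change of -0.12. In particle against control islets 0 passed edgeR's test, against 11.4% higher and 5.92% lower, and DESeq2 gave 1 lower. Gsk3b, a kinase that marks cyclin D1 for degradation, was at 107 ± 10.4 CPM in inflamed and 51.8 ± 6.22 CPM in control islets (edgeR adjusted p = 0.00573; SD, n = 3 each), and Cks1b, a cofactor in p27 degradation, at 3.77 ± 1.45 against 12.5 ± 2.54 CPM (edgeR adjusted p = 0.00580). Cryab, a small heat shock protein, was called higher at a log2 fold change of 2.49 (edgeR adjusted p = 0.0149). Its libraries overlapped, at 13.9, 4.31 and 35.7 CPM in inflamed and 1.32, 4.78 and 3.52 CPM in control islets. The deubiquitinase Usp2 was not called at -1.27 (edgeR adjusted p = 0.0708). The 2 became 1 when control 1, control 3 or inflamed 3 was left out, and the 1 became 2 without inflamed 3 or particle 3. In particle against control islets 1 was lower when control 2, inflamed 3 or particle 2 was left out, and 1 was higher without particle 2. Library totals gave 4 higher in inflamed and 2 higher in particle islets against control. The 1 lower in inflamed islets became 2 with DESeq2, limma on log2(FPKM + 1), no count filter or a fit of the compared libraries alone. The 2 higher became 1 without the filter, and 1 was lower in particle islets with RLE size factors or without the filter.

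S phase and mitosis genes showed few calls. Of 28 tested, 4 rose and 0 fell in inflamed against control islets, against 20.7% and 19% of all tested genes, with a median log2 fold change of 0.06. The 4 were Pcna, the DNA polymerase clamp and also a p53 target, at 67.4 ± 12.2 against 25.96 ± 4.31 CPM (edgeR adjusted p = 0.00203), the helicase subunits Mcm3 (log2 fold change 1.53, edgeR adjusted p = 0.0192) and Mcm7 (0.51, edgeR adjusted p = 0.0451), and Birc5, an inhibitor of apoptosis and mitotic factor (2.06, edgeR adjusted p = 0.0142). Levels were low for Mcm3, at 4.43 ± 2.32 CPM in inflamed and 1.55 ± 0.492 CPM in control islets. Those of Birc5 were 3.22 ± 1.68 and 0.763 ± 0.116 CPM (SD, n = 3 each). At such levels a change may go uncalled. The 0 lower became 2 with DESeq2, limma-voom or limma on log2(FPKM + 0.1), and 1 with limma on log2(FPKM + 1), no count filter, the replicate block or a fit of the compared libraries alone. The 4 became 1 without control 1, and 2 when control 2, control 3, inflamed 2 or inflamed 3 was left out. The 0 became 1 when inflamed 2, particle 2 or particle 3 was left out and 2 without inflamed 3. Pcna alone passed in particle against control islets (log2 fold change 1.13, edgeR adjusted p = 0.0143), against 11.4% of all tested genes higher and 5.92% lower, where the count was 0 without control 2 or control 3 and 2 without inflamed 3 or particle 2. It was 3 with library totals and 2 with DESeq2 or a fit of the compared libraries alone, and limma on log2(FPKM + 1) gave 1 lower.

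Regulators of the D cyclin and inhibitor genes were the last list. In inflamed against control islets 8 of 29 rose and 9 fell, against 20.7% and 19% of all tested genes, with a median log2 fold change of -0.32. Klf6, a transcription factor known to induce Cdkn1a, was at 77.5 ± 15.1 CPM in inflamed and 6.83 ± 0.954 CPM in control islets (edgeR adjusted p = 3.31e-05; SD, n = 3 each), and Myc, an oncogenic transcription factor, at 63.4 ± 5.11 against 10.3 ± 6.74 CPM (edgeR adjusted p = 0.00123). Hnf4a, a beta cell transcription factor, fell to 5.18 ± 1.86 CPM in inflamed islets, against 33.2 ± 4.13 CPM in control islets (edgeR adjusted p = 0.000905). Tgfb1, a growth-restraining cytokine, was at 43.1 ± 12.3 CPM in inflamed and 13.98 ± 3.68 CPM in control islets (edgeR adjusted p = 0.00190), and at 13.8 ± 3.67 CPM in particle islets, which were not called against inflamed islets (edgeR adjusted p = 0.112). The prolactin receptor Prlr, which acts on Ccnd2 in beta cells, fell (log2 fold change -3.12), and so did Men1 (-0.77), whose product menin maintains Cdkn1b and Cdkn2c expression. Prlr and Men1 were picked after their values were seen, and 12 of the 29 regulators were not called. A link between any regulator and the D cyclin or inhibitor genes was not tested. In particle against control islets 3 rose and 4 fell, against 11.4% and 5.92% of all tested genes. The 4 became 1 with library totals, 7 with limma-voom, 9 with limma on either FPKM scale and 11 with DESeq2. The 3 became 6 and the 4 became 7 without particle replicate 2. The 4 became 0 when control 2, control 3 or particle 1 was left out, 1 without control 1 or particle 3 and 2 without inflamed 1.

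In particle against inflamed islets edgeR called 0 genes of any of the 6 lists. Without particle replicate 3, the calls were 1 higher among p53 targets, 1 lower among p53 regulators, 1 higher in the G1 list, and 2 higher and 3 lower among regulators of D cyclin and inhibitor genes. DESeq2 called 1 higher among p53 targets, 2 higher in the G1 list, 2 lower in the turnover list, and 1 higher and 1 lower among the regulators.

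**Figure D5:**
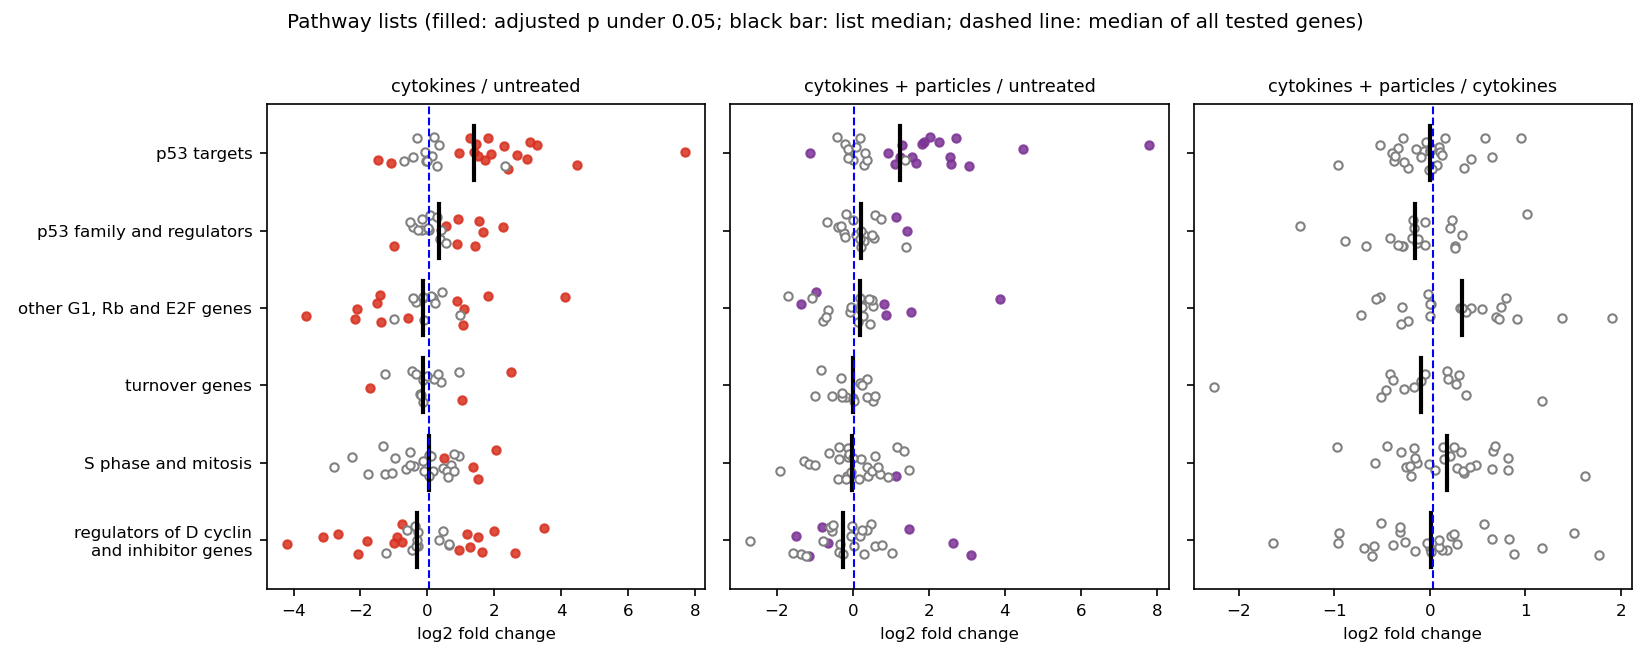
Log2 fold changes of the genes in 6 pathway lists, none of them among the 10 genes, in 3 comparisons; each point is a gene, filled where its adjusted p was under 0.05, black bars are list medians, and the dashed line is the median of all tested genes. The p53 target list sits to the right of the dashed line in both comparisons with untreated islets, with medians of 1.39 and 1.25.

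For each of the 7 genes called in inflamed islets, the 2 protein-coding genes with the most similar pattern were found as the smallest root mean square difference of centred log2(CPM + 0.5) over the 9 libraries, among 14169 candidates. They were Ppp1r15a (0.24) and Sat1 (0.25) for Cdkn1a, Erap1 (0.10) and Acot9 (0.11) for Mdm2, and Psma2 and Psma3 (0.10 each) for Trp53. For Cdkn1b they were Arglu1 (0.07) and Pigk (0.08). The D cyclins were matched by Creb3l2 (0.14) and Elapor1 (0.16) for Ccnd1, Hnrnpa2b1 (0.09) and Syt14 (0.11) for Ccnd2, and Slc39a3 (0.07) and Ap4s1 (0.09) for Ccnd3. Each gene's own root mean square was 1.29 for Cdkn1a, 1.07 for Mdm2, 1.01 for Ccnd1 and 0.31 to 0.46 for the other 4. A difference of 0.24 is small beside the 1.29 of Cdkn1a. Ppp1r15a, for example, averaged 548 ± 83.7 CPM in inflamed and 87.8 ± 38.9 CPM in control islets (SD, n = 3 each). In particle islets Ppp1r15a averaged 485 ± 132 CPM, and particle replicate 1, at 334 CPM, lay below all inflamed libraries. Cdkn1a was at 522 CPM in that library.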

How the data were processed

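RNA sequencing of whole mouse islets gave 9 libraries, 3 a group. Titles in the labels gave each library its group and number; the control columns carry no treatment word and were matched as the set left over. The deposited counts are whole-number reads per gene, not normalized; the submitters' processing notes name HTSeq, DESeq2 and build GRCm39 (mm39) without tool versions. The authors' deposited FPKM values equal counts over gene length and 1 constant per library, 0.860 to 1.19 times the total count.

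The count test was edgeR 4.0.16 (R 4.3.3): filterByExpr (smallest count 10), TMM factors, 1 robust quasi-likelihood fit over 9 libraries, Benjamini-Hochberg adjustment over 17276 genes. CPM uses TMM-scaled totals. The SE is the log2 fold change over the root of the F statistic. Pathway lists are described by counts, with the 4 members of smallest adjusted p named in each; other named list members were chosen after their values were seen. The 10 genes and all lists were chosen with earlier results of these data known. Marker lists cover beta, alpha, delta, macrophage, endothelial, stellate, duct, acinar, lymphocyte and neutrophil cells. In inflamed against control islets the higher and lower calls were 0 and 4 of 5 alpha, 0 and 2 of 3 delta, 0 and 2 of 11 stellate, 2 and 1 of 6 duct, 0 and 1 of 8 acinar, 0 and 1 of 1 lymphocyte and 1 and 0 of 3 neutrophil markers tested. Alternatives included DESeq2 1.42.0 and limma 3.58.1 on counts and FPKM. The procedure was also run on simulated counts, in which far fewer genes were changed than were called here for inflamed against control islets. That run does not measure the accuracy of the procedure on these data. As a check for a library deposited in duplicate, replicate counts were compared, and no pair agreed within sampling noise (chi-square over its degrees of freedom 43.4 to 207). Promoters come from RefSeq on GRCm38.p6 and were matched by symbol; no GRCm39 coordinate was joined to them.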

Additional observations from a re-analysis of the deposited data

How the results depend on the processing

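The calls of Cdkn1a, Mdm2 and Trp53 in both comparisons with control islets, and of Ccnd1 and Cdkn1b in inflamed against control islets, held under all 21 alternatives. The 4 of the 10 genes lower in inflamed islets became 2 with library totals, and 2 to 4 when leaving out 1 library, 2 without inflamed replicate 2 or 3. In particle against control islets 0 were lower, but 1 (Ccnd1) with RLE size factors, the stricter count filter, limma-voom, limma on log2(FPKM + 1) or log2(FPKM + 0.1) or the replicate block, and 2 (Ccnd1 and Cdkn1b) with DESeq2; leaving out 1 library gave 0 to 3. In particle against inflamed islets 0 were higher, and 0 to 1 when leaving out 1 library.

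Over all genes, particle against inflamed islets gave 0 calls with edgeR (2603 at an unadjusted p under 0.05), 1 with library totals, 221 without a count filter, 783 with DESeq2, 15 with limma-voom, 16 and 14 with limma on log2(FPKM + 1) and log2(FPKM + 0.1), and 0 to 942 when leaving out 1 library, the most without particle replicate 3. Particle against control islets gave 2983 calls, and 1115 to 4545 when leaving out 1 library, the most without particle replicate 2; leaving out any 1 of the 3 particle or 3 control libraries moved it by over 1.5 times. With library totals the split of higher and lower calls was 4240 and 2605 for inflamed against control, beside 3568 and 3274, and 3193 and 597 for particle against control, beside 1961 and 1022.

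Signs turned only for values that were not called. In particle against inflamed islets the log2 fold change of Cdkn1a was 0.10 with library totals, 0.00212 with scaling without the most abundant and mitochondrial genes and 0.00524 with the replicate block, and that of Mdm2 was 0.0122 with library totals. Cdk4 in particle against control was 0.10 with library totals, and Cdkn2a in inflamed against control was -0.0165 with limma-voom. Leaving out 1 library gave, in particle against inflamed islets, -0.017 to 0.157 for Cdk4, -0.142 to 0.0711 for Cdkn1a, -0.985 to 0.524 for Cdkn1c, -0.167 to 0.747 for Cdkn2a, -0.0652 to 0.16 for Trp53 and -0.428 to 0.145 for Mdm2; in inflamed against control, -0.496 to 0.418 for Cdkn2a; and in particle against control, -0.131 to 0.531 for Cdkn2a.

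Replicate numbers share no stated origin, and deviations of same-numbered libraries correlated at -0.22 to 0.15, with 1 of 9 libraries closest to its own number. With the replicate block Ccnd3 was not called in inflamed islets (edgeR adjusted p = 0.0572) and Ccnd1 was called in particle islets (0.0243). Cdkn1c and Cdkn2a had at most 125 and 38 counts per library and the widest intervals; the cause of the sign changes was not tested.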
